A study of Arabidopsis thaliana with 8 samples.

Results

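Genes were compared directly between Arabidopsis thaliana seedlings labelled pial1/2 and seedlings labelled mom1, to see which loci differed in RNA level when the 2 PIAL proteins or MOM1 were lost. The pial1/2 library and the first mom1 library had each been set against the same wild-type (WT) library, so the difference between their ratios to WT compares the mutants with each other. A gene was taken when it reached 1 FPKM (fragments per kilobase of transcript, scaled to library size) in either mutant library. That left 19905 of 34133 annotated entries, of which 19300 reached 1 FPKM in both libraries, 253 in pial1/2 alone and 352 in mom1 alone. Cuffdiff gave no valid estimate for 49 of them in one or the other table, so the difference was available for 19856.

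All plants were 10-day-old whole seedlings of the Col-0 background grown under 16 h of light and 8 h of dark. The genotypes used were pial1/2, pial2, mom1pial2, nrpe1 and mom1, with WT as control; mom1 and WT had 2 libraries each and every other genotype had 1. The labels name no allele and do not say how many seedlings were pooled. pial1/2, nrpe1 and mom1 replicate 1 were set against WT replicate 1, and pial2, mom1pial2 and mom1 replicate 2 against WT replicate 2.

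MOM1 is a plant nuclear protein that keeps heterochromatic transposons and some repeats transcriptionally silent without a large loss of DNA methylation. PIAL1 and PIAL2 are proteins with a RING-type domain related to that of SUMO E3 ligases, enzymes that attach the small protein SUMO to other proteins, and the study reports that they interact with MOM1. Loci that lose silencing in such mutants lie mostly in the gene-poor chromatin around the centromeres, and they serve here as the readout of silencing.

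To show the loci on which the comparison turns, the 250 bases before the annotated start of 4 of them are given below, 5′ to 3′ on the gene's strand, from the RefSeq TAIR10.1 genome with every CG in capitals, since CG is a main site of DNA methylation in silent plant chromatin. AT3G42353 (chr3:14497542-14497791, minus strand) and AT2G11780 (chr2:4729428-4729677, plus strand) were lower in pial1/2 than in mom1, whereas AT2G04460 (chr2:1549000-1549249, minus strand) and SDC (chr2:7681912-7682161, plus strand) had similar levels in pial1/2 and mom1 replicate 1.
AT3G42353: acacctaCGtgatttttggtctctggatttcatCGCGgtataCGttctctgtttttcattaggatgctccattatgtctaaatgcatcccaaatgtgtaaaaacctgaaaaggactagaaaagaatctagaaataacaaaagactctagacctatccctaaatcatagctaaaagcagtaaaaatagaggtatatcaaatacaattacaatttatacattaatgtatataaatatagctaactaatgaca
AT2G11780: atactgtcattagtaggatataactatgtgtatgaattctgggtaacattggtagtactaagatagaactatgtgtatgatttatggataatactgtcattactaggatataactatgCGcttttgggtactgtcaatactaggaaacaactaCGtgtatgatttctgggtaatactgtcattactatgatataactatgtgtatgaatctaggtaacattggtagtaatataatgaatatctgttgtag
AT2G04460: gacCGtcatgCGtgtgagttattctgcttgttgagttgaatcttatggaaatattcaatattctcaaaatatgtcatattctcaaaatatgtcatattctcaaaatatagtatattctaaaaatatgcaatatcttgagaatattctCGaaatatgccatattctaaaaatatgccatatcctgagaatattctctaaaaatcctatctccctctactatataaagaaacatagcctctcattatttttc
SDC: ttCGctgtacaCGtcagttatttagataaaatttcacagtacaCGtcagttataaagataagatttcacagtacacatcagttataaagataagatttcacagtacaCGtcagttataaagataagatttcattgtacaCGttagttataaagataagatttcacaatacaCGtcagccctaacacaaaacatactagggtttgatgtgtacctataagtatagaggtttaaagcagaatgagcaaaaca
The windows held 4, 2, 3 and 6 CG in that order. Of 37879 such windows in the genome, 65.4%, 88.7%, 78.0% and 41.2% held at least as many. The SDC window carried a run of 38 bases that occurs again further along without overlap, and 0.222% of windows held a repeated run that long. The longest repeated run was 21 bases in the AT2G11780 window, 18 in the AT2G04460 window and 8 in the AT3G42353 window, and 1.57%, 2.78% and 77.2% of windows held one as long. Among transposon-class loci that the authors called up in mom1 replicate 2 and that reached 1 FPKM, the median was 4 CG over the 23 loci at least 2-fold lower in pial1/2 and 5 over 28 others, beside 5 over all windows.

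The mutated genes were examined first. MOM1 stood at 5.73 FPKM in pial1/2, 1.61 in mom1 replicate 1 and 6.07 in WT replicate 1, and at 4.13 in pial2, 1.15 in mom1 replicate 2 and 4.90 in WT replicate 2. PIAL2 stood at 4.79 FPKM in pial1/2, 6.47 in mom1 replicate 1 and 6.47 in WT replicate 1, but at 1.96 in pial2 and 2.13 in mom1pial2 against 5.42 in WT replicate 2. NRPE1 stood at 3.54 FPKM in pial1/2, 3.42 in mom1 replicate 1 and 4.58 in WT replicate 1, and at 1.16 in nrpe1. PIAL1 was at 11.3 FPKM in pial1/2, 11.1 in mom1 replicate 1 and 11.7 in WT replicate 1. The whole-gene level of PIAL1 and PIAL2 therefore did not mark the library labelled pial1/2 in the way that MOM1 marked both mom1 libraries, and an insertion can leave RNA from the rest of a gene. One other gene followed the pial2 label in all 3 libraries that carry it, as described further on.

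The tables hold no read counts. From the steps between low FPKM values, 1 fragment was worth 1.53 times as much in pial1/2 as in mom1 replicate 1, so the mom1 library was the deeper. FPKM summed to 918343 in pial1/2 and 903183 in mom1 replicate 1. Of the 10 leaf and photosynthesis genes in a marker list, 9 were measured and all lay slightly below 0, with a median of -0.12 on the log2 scale. Seed markers were below 1 FPKM in both libraries for all 11 matched genes, 1 of 8 flower markers was measured, and 8 root markers had a median difference of -0.13, which was 0.95 against mom1 replicate 2; the part of root tissue in the values against that library was not tested.

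Levels in the 2 mutants were close for most genes. The difference, pial1/2 minus mom1 in log2(FPKM + 1), had a median of 0.00 and a robust SD of 0.157. The difference between the 2 mom1 ratios had a robust SD of 0.227. That second spread also holds the 2 WT libraries, whereas WT replicate 1 cancels from the first, so they are not like for like. At least 2-fold higher in pial1/2 were 154 entries, 0.776% of those measured, and 170 were at least 2-fold lower, 0.856%. With 1 library on each side these are differences between libraries and carry no test. Of the 154, 57 were at least 2-fold down in mom1 relative to WT and 57 at least 2-fold up in pial1/2; of the 170, 96 were at least 2-fold up in mom1 and 47 at least 2-fold down in pial1/2.

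**Figure D1:**
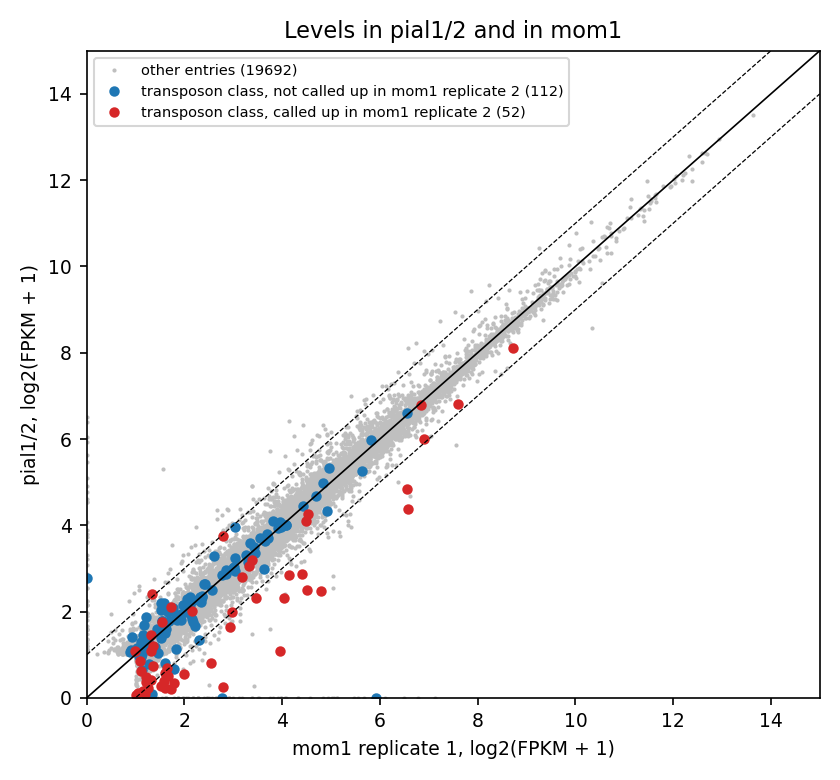
Each point is a measured entry, placed by its log2(FPKM + 1) level in pial1/2 (vertical) and in mom1 replicate 1 (horizontal); the solid line marks equal levels and the dashed lines 2-fold. Of the 52 transposon-class loci called up in mom1 replicate 2 (red), 46 lie below the line of equal levels. Those that reached 1 FPKM in mom1 alone were bound to lie below it.

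The extremes of the ranking were short RNAs. All of the 12 lowest and the 12 highest differences belonged to entries under 300 bases, such as MIR170 at 0 FPKM in pial1/2 and 139 in mom1, and MIR162b at 29.2 FPKM in pial1/2 and 0 in mom1. Different entries of 72 bases each (AT1G28720, AT1G45236 and AT2G07756) were listed at 0 FPKM in pial1/2 and at the same 59.3 FPKM in mom1, since at this length a few fragments make a large value. Entries of at least 300 bases numbered 87 on the higher side and 92 on the lower side, and the account below turns on these.

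Transposon-class loci made up a larger share of the lower side. This class, which is RefSeq's pseudogene biotype and consists mostly of transposable element genes, had 164 measured loci, of which 2 were at least 2-fold higher in pial1/2 and 30 at least 2-fold lower (18.3%, against 0.856% of all entries). All 30 lay within the pericentromeric windows, where 108 loci were measured with a median of -0.20, while the 56 on the chromosome arms had none in either direction and a median of 0.03. The arm loci were little raised over WT, with median log2 ratios of 0.036 in pial1/2 and 0.054 in mom1 replicate 1. The pericentromeric loci had 0.26 in pial1/2 and 1.19 in mom1 replicate 1. The arm loci therefore had little gain that could differ between the mutants. Among the 164, 5 reached 1 FPKM in pial1/2 alone and 36 in mom1 alone, so those 36 had to lie below 0. Among the 123 that reached it in both, 1 was at least 2-fold higher, 10 were at least 2-fold lower (8.13%) and the median was 0.02.

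A set of genes chosen without either library came from the authors' deposited table of mom1 replicate 2. It called 212 genes up at q below 0.05 (0.979% of those the authors tested). The list was still chosen in a mom1 mutant, so loci up only in pial1/2 could not enter it. That choice, which the mom1pial2 list below shares, favours values below 0. With no filter on level, 211 of the 212 had a valid difference in the first set. Of these 211, 2 were at least 2-fold higher in pial1/2 than in mom1 replicate 1 (0.948%) and 30 at least 2-fold lower (14.2%). Over all entries the shares were 0.776% and 0.856%. Below 0 lay 176, with a median of -0.37. With the mom1 replicate 2 ratio in place of replicate 1 that median was -0.77, although that library chose the list. Not all of these genes were silent in WT, since ERD10 had 289 FPKM in WT replicate 1. With the 1 FPKM filter, 102 were other genes on the arms, with a median of -0.25 (-0.82 with mom1 replicate 2). Of the 211, the 74 transposon-class loci had a median of -0.67, with 1 higher, 23 lower (31.1%) and 67 below 0. With mom1 replicate 2 their median was -0.66. Genes that the authors called up in the other libraries are given here with the 1 FPKM filter, which admits some loci through mom1 alone. Of those called up in mom1pial2 (0.824% of those tested), 145 were measured, 2 were at least 2-fold higher and 29 lower, with a median of -0.32; their 53 transposon-class loci had a median of -0.94, with none higher and 23 lower. Of those called up in nrpe1 (1.2%), 223 were measured, 2 were higher and 5 lower, with a median of -0.14; their 10 transposon-class loci had a median of -0.0066 and none 2-fold apart. Of those called up in pial2 (0.844%), 163 were measured, 3 were higher and 3 lower, with a median of -0.08; their 8 transposon-class loci had a median of -0.21 and none 2-fold apart.

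**Figure D2:**
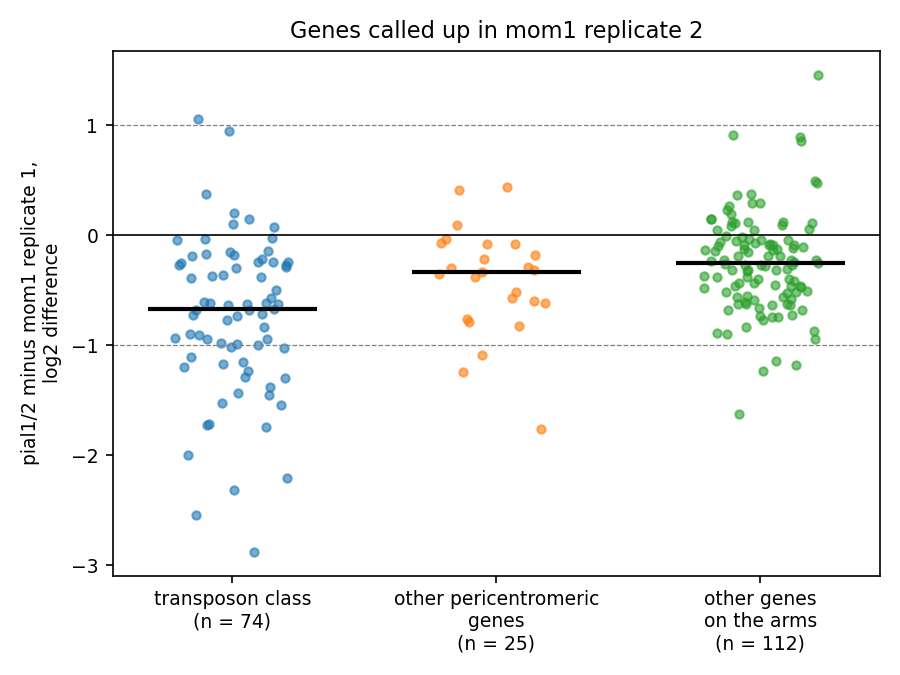
Each point is a gene called up in mom1 replicate 2 by the authors, with its pial1/2 minus mom1 replicate 1 difference on the log2 scale (vertical), by class; thick bars are medians and dashed lines 2-fold. The 74 transposon-class loci centre on -0.67 and spread the most widely downwards.

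The gain of these loci over WT was mostly smaller in pial1/2 than in mom1. Of the 74 transposon-class loci, 50 gained at least 1 FPKM over WT in mom1 replicate 1, and there the gain in pial1/2 was a median of 29.9% of the gain in mom1 (quartiles 14.5% and 74.3%). The gain that admitted these loci is also the divisor, which favours shares under 100%. It was under 25% at 22 loci, from 25% to 50% at 10, from 50% to 100% at 13, and at least 100% at 5. The 19 other pericentromeric genes with such a gain had a median of 67.7% (quartiles 42.5% and 84.2%). The 61 other genes on the arms had a median of 16.5% (quartiles -14.4% and 65.8%), and their shares ran widely, from -1667% to 637%. Summed over loci, where the strongly transcribed ones weigh most, the shares were 56.0% for the transposon class, 58.1% for the other pericentromeric genes and 33.5% for those on the arms. Transposon-class loci in which at least 10% of 50-base windows occur elsewhere in the genome had a median share of 13.6% (20 loci), and those with less repeated sequence 48.4% (30 loci). Over the 52 such loci that reached 1 FPKM, the difference had a Spearman rho of only -0.18 with the percent of repeated windows. The 2 groups also differed in level, with summed FPKM in mom1 replicate 1 of 168 over 21 more repeated loci and 1139 over 31 others. Over the same 52 loci the difference had a Spearman rho of -0.26 with the level in mom1 replicate 2. The part of level in the shares was not tested.

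At the low end stood loci with little RNA in pial1/2. AT4G07605, a transposon-class locus on chromosome 4, had 0.195 FPKM in pial1/2, 5.96 in mom1 replicate 1 and 0 in WT replicate 1. In the second set it had 0 in pial2, 3.60 in mom1pial2, 3.88 in mom1 replicate 2 and 0 in WT replicate 2. Both mom1 libraries and the mom1pial2 library were high, and the other libraries were near 0. Its neighbour in the ranking, AT4G06615, had 1.11 FPKM in pial1/2, 14.5 in mom1 replicate 1 and 0 in WT replicate 1, and the second set read 0.167 in pial2, 16.8 in mom1pial2, 20.6 in mom1 replicate 2 and 0.0775 in WT replicate 2. The difference was -2.54 for the first locus and -2.88 for the second, the lowest among genes called up in mom1 replicate 2. In the authors' deposited table AT4G06615 was nevertheless called up in pial1/2 against WT (q = 0.000408). Of the sequence windows of AT4G06615, 49.5% occur elsewhere in the genome, so its reads may be shared with other copies.

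A cluster on chromosome 3 (chr3:14497056-14514632) held 4 transposon-class loci that were all lower in pial1/2. AT3G42353, whose upstream window is printed above, had 19.7 FPKM in pial1/2, 95.0 in mom1 replicate 1 and 0.196 in WT replicate 1. In the second set it had 0 in pial2, 65.2 in mom1pial2, 64.3 in mom1 replicate 2 and 0.233 in WT replicate 2. The pial1/2 level was therefore well above WT and about 4.82-fold under mom1. AT3G42356 had 4.6 FPKM in pial1/2 and 26.8 in mom1 replicate 1, and AT3G42360 had 4.68 in pial1/2 and 21.7 in mom1 replicate 1. The differences were -2.21 for AT3G42353, -2.31 for AT3G42356 and -2.00 for AT3G42360, but -0.83 for AT3G42386, which had 0.295 FPKM in pial1/2 and 1.30 in mom1 replicate 1. Against mom1 replicate 2 they were -1.61, -1.02, -1.30 and -0.63. The cluster's median difference from mom1 replicate 1 was -2.10, and no sequence of its 3 strongest loci recurs elsewhere in the genome at 50 bases.

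On chromosome 2, AT2G11778 and AT2G11780 lie 1439 bases apart. AT2G11780 had 27.5 FPKM in pial1/2, 93 in mom1 replicate 1 and 0.197 in WT replicate 1, and in the second set 0.405 in pial2, 98.1 in mom1pial2, 98.1 in mom1 replicate 2 and 0.230 in WT replicate 2. The gap of -1.72 to mom1 replicate 1 was -1.76 against mom1 replicate 2. AT2G11778, a short entry of 168 bases, differed by -1.76, with 377 FPKM in pial1/2, 1286 in mom1 replicate 1 and 1.86 in WT replicate 1, and by -0.44 without mom1 replicate 1.

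At other silenced loci pial1/2 was close to mom1 replicate 1. SDC, an F-box gene whose promoter repeats are silenced through small RNAs, had 67.6 FPKM in pial1/2, 63.2 in mom1 replicate 1 and 0.553 in WT replicate 1. In the second set it had 8.36 in pial2, 47.0 in mom1pial2, 39.0 in mom1 replicate 2 and 0.350 in WT replicate 2. Its difference was 0.10, within the robust SD over all genes, and 0.58 against mom1 replicate 2. AT2G04460 had 110 FPKM in pial1/2, 113 in mom1 replicate 1 and 2.09 in WT replicate 1, a difference of -0.04 that was 0.85 against mom1 replicate 2. PUM9, which encodes a Pumilio RNA-binding protein, had 11.9 FPKM in pial1/2, 8.50 in mom1 replicate 1 and 0.0927 in WT replicate 1. It was 0.747 in pial2 and 4.14 in mom1 replicate 2, and its difference of 0.44 was 1.29 against that replicate, over 2-fold.

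AT5G27845, a transposon-class locus on chromosome 5, was higher in pial1/2, at 12.4 FPKM against 5.95 in mom1 replicate 1 and 0.202 in WT replicate 1. With 3.31 in mom1 replicate 2, both mom1 libraries were lower than pial1/2, and nrpe1, which lacks the largest subunit of RNA polymerase V, had 30.7. AT2G15815 cannot be placed, because 2 entries share that locus: they gave 2.99 and 4.28 FPKM in pial1/2, and 6.85 and 1.54 in mom1 replicate 1.

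Between these ends lay the transposon-rich run next to SQN on chromosome 2, where SQN (a cyclophilin 40 gene), AT2G15800 and AT2G15810 differed by -0.76, -0.77 and -0.89. AT2G15810 had 63.0 FPKM in pial1/2, 118 in mom1 replicate 1 and 0.471 in WT replicate 1, but 0.861 in pial2. AT4G04293 had 275 FPKM in pial1/2, 420 in mom1 replicate 1 and 3.05 in WT replicate 1. Of a list of 14 silenced loci from the literature on such mutants, 10 were matched and 9 measured; none was at least 2-fold higher in pial1/2, 1 was at least 2-fold lower and 7 lay below 0, with a median of -0.38. The 1 was QQS, a gene found only in Arabidopsis thaliana that affects leaf starch. QQS had 16.2 FPKM in pial1/2, 39.9 in mom1 replicate 1 and 8.18 in WT replicate 1, and 9.11 in pial2, 23.2 in mom1 replicate 2 and 6.07 in WT replicate 2. nrpe1 lay below every other library, at 0.727. The QQS difference of -1.24 was -0.87 against mom1 replicate 2, no longer 2-fold.

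**Figure D3:**
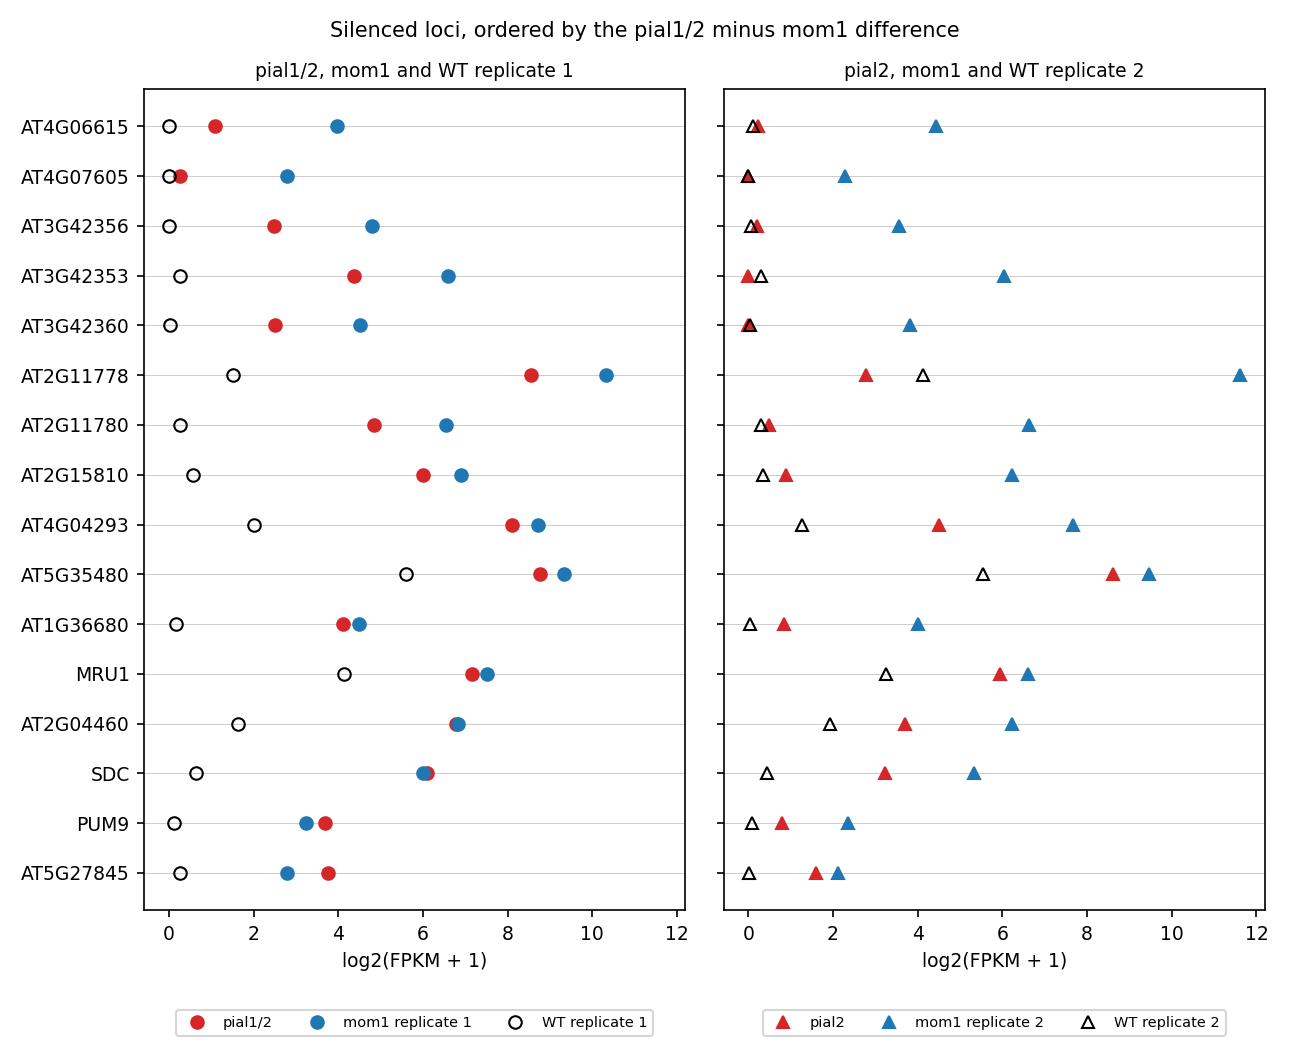
Levels of 16 silenced loci as log2(FPKM + 1) (horizontal), ordered from the lowest to the highest pial1/2 minus mom1 difference; left, pial1/2, mom1 replicate 1 and WT replicate 1, and right, pial2, mom1 replicate 2 and WT replicate 2. The pial1/2 points move from near WT at the top to at or beyond mom1 at the bottom, while pial2 stays below mom1 at all of them.

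Among genes called up in mom1 replicate 2 and measured here, 29 neighbouring pairs lay within 10 kb of each other, and the median absolute gap between the differences of a pair was 0.183, beside 0.541 over all 15225 pairs of these loci. All pairs mix classes with unlike medians, -0.94 for the transposon class and -0.25 for other genes on the arms. The 2 values are therefore not like for like. Neighbouring entries may share reads where they overlap, and only SQN with AT2G15800 had a gap of 0 bases. In 8 of the 29 pairs the gap exceeded that median, among them AT4G06517 with AT4G06615 (1.77), AT4G07586 with AT4G07605 (1.6) and AT4G04170 with AT4G04180 (1.25). Median differences of the runs reached from -2.10 for the cluster of AT3G42353 to 0.68 for AT5G27845 with AT5G27850, with -1.48 for AT1G42040 with AT1G42050, -0.17 for the run of AT5G34790 and 0.32 for PUM9 with AT1G35735 between them.

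pial2 against mom1 replicate 2 shares no library with the main comparison. There, 170 entries were at least 2-fold higher in pial2 (0.859%) and 204 at least 2-fold lower (1.03%). Across the 140 transposon-class loci measured in both sets, the 2 differences had a Pearson r of 0.68 and a Spearman rho of 0.63, while over all 19178 entries r was 0.05. These are descriptions across genes, which are not independent replicates. At the 52 transposon-class loci called up in mom1 replicate 2, the median log2 ratio to WT was 0.0018 in pial2 and 2.14 in mom1 replicate 2. There the second difference is mostly the mom1 gain with its sign turned. The correlation and the counts shared by both sets therefore partly restate that both mom1 libraries raise the same loci. At least 2-fold lower in both sets were 44 entries, of which 33 had at least 300 bases and 25 were of the transposon class; 16 more were lower in the first set and higher in the second. At least 2-fold higher in both sets were 21 entries, 12 of them with at least 300 bases and none of the transposon class, and 10 more had the opposite sign in the second set.

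The loci that the authors called up in pial1/2 numbered 153 in their deposited table (0.7% of those tested), against 212 in that of mom1 replicate 2, and these tables use different WT libraries. The lists had 64 in common, 41.8% of the pial1/2 list and 30.2% of the mom1 list, and 39 of the 64 were of the transposon class. Of the genes called down, 107 in pial1/2 (0.489%) and 295 in mom1 replicate 2 (1.36%), the lists had 12 in common.

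Genes outside the silenced loci also separated the mutants. ERF9, which encodes an ethylene response factor type transcription factor, had 0.230 FPKM in pial1/2, 4.67 in mom1 replicate 1 and 4.47 in WT replicate 1. It had 0.122 in pial2, 0.304 in mom1pial2, 5.33 in mom1 replicate 2 and 4.0 in WT replicate 2, and nrpe1 had 4.2. All 3 libraries whose label holds a pial2 mutation were thus below 1 FPKM and all other libraries at about 4.0 or above. The difference was -2.20 against mom1 replicate 1 and -2.49 against replicate 2, and pial2 minus mom1 replicate 2 was -2.52. ERF9 lies 1.18 Mb from PIAL2 on chromosome 5. HEI10, named after its values were seen and known for its role in meiotic crossovers, had 6.41 FPKM in pial1/2, 16.2 in mom1 replicate 1 and 19.2 in WT replicate 1. HEI10 was at 13.1 in pial2, 21.3 in mom1pial2, 24.1 in mom1 replicate 2 and 23.3 in WT replicate 2, so mom1pial2 stayed near WT. It was 2.37 in nrpe1, and its interval overlaps that of another entry.

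Among the gene lists, that of touch response and cell expansion had the highest median difference. All 6 measured members of that list lay above 0 in pial1/2 minus mom1, 3 of them at least 2-fold, with a median of 1.05, beside 0.00 over all entries. The list was chosen with earlier results of these data known, so its values are a description and no test. TCH4 (XTH22), a xyloglucan endotransglucosylase/hydrolase that remodels the cell wall, had 692 FPKM in pial1/2, 231 in mom1 replicate 1 and 862 in WT replicate 1. In the second set it had 55.3 in pial2, 11.5 in mom1 replicate 2 and 72.3 in WT replicate 2. EXO, a brassinosteroid-responsive growth gene, had 422 FPKM in pial1/2, 149 in mom1 replicate 1 and 435 in WT replicate 1. In the second set EXO had 69.1 in pial2, 20.5 in mom1 replicate 2 and 96.1 in WT replicate 2. PHI-1, a relative of EXO, had 52.0 FPKM in pial1/2, 12.5 in mom1 replicate 1 and 62.9 in WT replicate 1, and 16.2 in pial2, 3.26 in mom1 replicate 2 and 9.84 in WT replicate 2. For these 3 genes both mom1 libraries were lower than their WT library and than the PIAL mutant of the same set. The mom1pial2 library, at 22.7 FPKM for TCH4, 34.6 for EXO and 4.94 for PHI-1, also lay below WT replicate 2.

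The calmodulin-like genes TCH2 and TCH3 and the EXO relative EXL2 differed less, by 0.23, 0.60 and 0.44. TCH3 and EXL2 were not higher against mom1 replicate 2, at -0.47 and -0.01. Other genes among the 20 highest entries of at least 300 bases, a set taken after the values were seen, included XTH15, of the same enzyme family as TCH4, with 84.2 FPKM in pial1/2, 16.5 in mom1 replicate 1 and 41.9 in WT replicate 1. Its difference of 2.29 was 1.16 against mom1 replicate 2. The expansin-like gene EXLA1 differed by 1.92 from mom1 replicate 1 and by -0.08 from replicate 2, so that value rests on mom1 replicate 1. AT3G44006 had 38.4 FPKM in pial1/2 and 1.93 in mom1 replicate 1, with 0 in WT replicate 1 and in pial2, so pial1/2 stood apart from every other library.

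**Figure D4:**
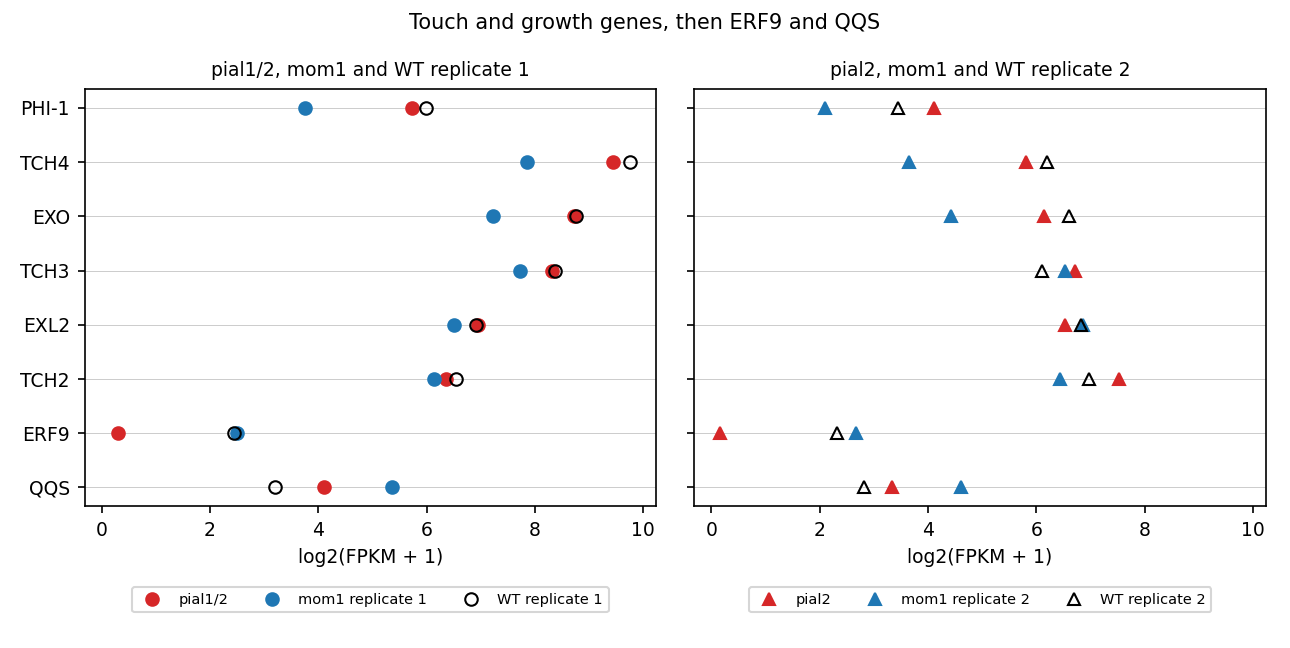
Levels of the 6 touch and growth genes, ERF9 and QQS as log2(FPKM + 1) (horizontal); left, pial1/2, mom1 replicate 1 and WT replicate 1, and right, pial2, mom1 replicate 2 and WT replicate 2. PHI-1, TCH4 and EXO are lowest in mom1 in both panels, and ERF9 is lowest in pial1/2 and in pial2.

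Several stress and clock lists differed from mom1 replicate 1 but little from replicate 2. The 8 morning clock genes all lay below 0 with a median of -0.66, which was -0.10 against mom1 replicate 2 and -0.12 for pial2 minus mom1 replicate 2. PRR9, a clock repressor, had 2.82 FPKM in pial1/2, 7.85 in mom1 replicate 1 and 4.08 in WT replicate 1. PRR9 was below mom1 in each comparison, at -1.21, -1.03 against replicate 2 and -0.77 for pial2. CDF1, a repressor of flowering under clock control, differed by -1.14. The day and evening clock genes lay above 0 in 9 of 10 cases, with a median of 0.38 that was 0.07 against mom1 replicate 2. LHY, a morning gene, had 1.46 FPKM in pial1/2, 3.09 in mom1 replicate 1 and 1.96 in WT replicate 1, whereas in the second set it had 149 in pial2, 130 in mom1 replicate 2 and 156 in WT replicate 2. LHY was thus far lower in all libraries of the first set than in those of the second, and the labels give no hour of harvest; its part in the list values was not tested.

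The 10 measured heat response genes all lay below 0, with a median of -0.52 that was 0.10 against mom1 replicate 2. The chaperone gene HSP70 (AT3G12580) had 9.89 FPKM in pial1/2, 22.4 in mom1 replicate 1 and 11.2 in WT replicate 1, a difference of -1.10 that became 0.54 against mom1 replicate 2. The 13 jasmonate and wounding genes had a median of -0.64, and -0.22 against mom1 replicate 2, with the jasmonate synthesis gene LOX3 at 2.45 FPKM in pial1/2, 7.83 in mom1 replicate 1 and 2.70 in WT replicate 1. Over 14 genes of abscisic acid, cold and drought responses the median was -0.24, and it was -0.51 against mom1 replicate 2. HAI2, a phosphatase of abscisic acid signalling, was at least 2-fold lower, at 1.73 FPKM in pial1/2, 5.07 in mom1 replicate 1 and 1.61 in WT replicate 1. The 2-fold call was lost against mom1 replicate 2 for HAI2 (-0.86), LOX3 (-0.60) and CDF1 (-0.69). In the 11 salicylic acid defence genes the median was -0.25, and in the 9 flowering genes 0.10, with none at least 2-fold apart in either list.

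Genes of the silencing machinery were within 2-fold of each other in both mutants. None of the 20 measured genes of RNA-directed DNA methylation, 15 of heterochromatin maintenance, 6 of DNA demethylation and 13 of the SUMO pathway differed by 2-fold or more, and their medians were 0.02, -0.05, 0.16 and -0.01.

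**Figure D5:**
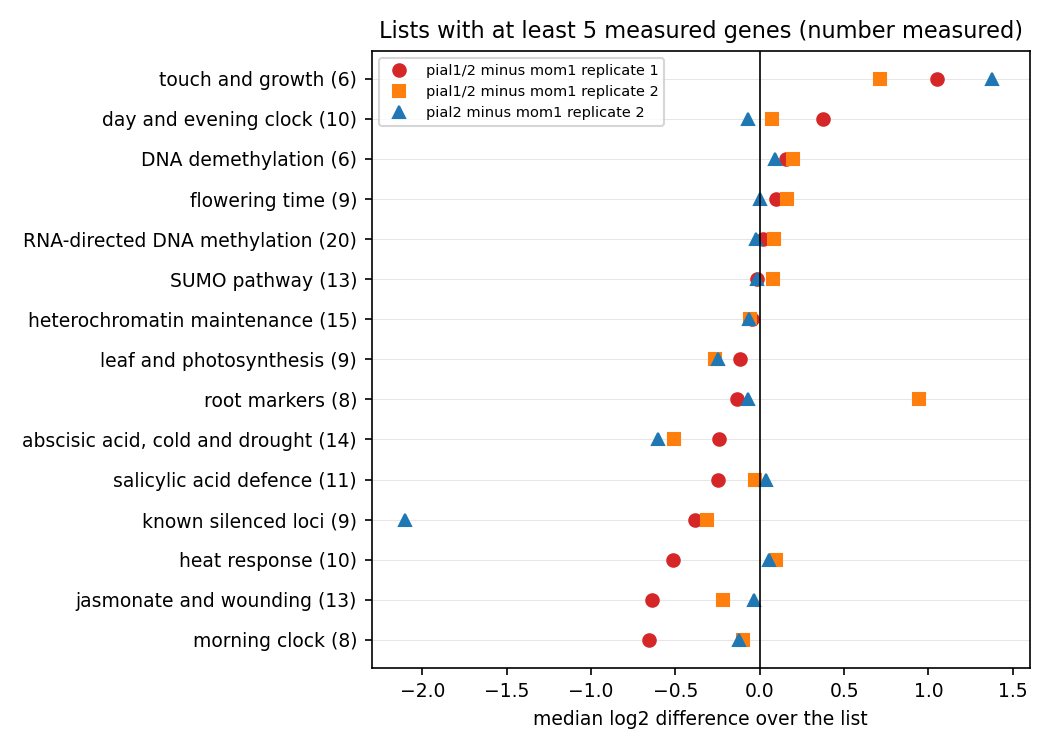
Median log2 difference (horizontal) over each gene list with at least 5 measured genes, for pial1/2 minus mom1 replicate 1, pial1/2 minus mom1 replicate 2 and pial2 minus mom1 replicate 2. Touch and growth lies above 0 and known silenced loci below 0 in all 3, while morning clock, heat response and jasmonate medians lie furthest from 0 against mom1 replicate 1.

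A test across genes was possible against both mom1 libraries, with limma on 3 ratios to WT (1 residual degree of freedom), taking pial1/2 to vary like mom1. It also took the 3 ratios as independent, although those of pial1/2 and mom1 replicate 1 share WT replicate 1. The spread it used, between the 2 mom1 ratios, includes the difference between the 2 WT libraries. Its SEs and p-values are therefore only approximate. No gene passed at an adjusted p of 0.05 among 20317, in either direction (0% called). The lowest Benjamini-Hochberg adjusted p was 0.0769, and 275 genes were higher and 258 lower at an unadjusted p under 0.05. For AT4G06615 the limma difference was -3.06 with an SE of 0.225 (adjusted p = 0.358), for ERF9 -2.35 with an SE of 0.199 (adjusted p = 0.426) and for AT2G11780 -1.74 with an SE of 0.144 (adjusted p = 0.417). In a simulation of this comparison over 20317 genes, limma found 0% of the 2-fold changes, 20% of the 4-fold and 86% of the 8-fold ones, with 13 false calls among 114. The simulated ratios were drawn independently, without a shared WT library, and 50 genes were changed at each of 2, 4, 8 and 16-fold. The recovered shares may therefore not hold for the real libraries, and they do not show how many large changes exist. Nothing in the labels says that libraries came from separate cultures, so the spread between the mom1 libraries may be partly technical.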

How the data were processed

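RNA-seq of 8 seedling libraries was read from 6 Cuffdiff tables, each of 1 mutant against 1 WT library. FPKM values, p-values and q-values were deposited by the authors, per the file headers; TopHat2 2.0.12, Bowtie, Cufflinks 2.2.1 and Cuffdiff stand in the submitters' processing notes. Depth per library is not given. The pseudocount was 1 and entries with FAIL, HIDATA or LOWDATA status were left out. Coordinates match TAIR10.1 for 99.7% of 3270 transposon-class entries. The ratio to the WT library of each table served as a replicate block for limma 3.58.1 (R 4.3.3). Pericentromeric windows were set in Mb around each centromere. A fold change on this scale understates that of low genes. Genes, lists and members were chosen with earlier results of these data known. Named were the 12 lowest and 12 highest differences, the mutated genes, up to 4 list members past 2-fold, the 6 lowest and 6 highest of the genes called up in mom1 replicate 2, and up to 8 genes per direction past 2-fold in both sets; others are named as group examples. Alternatives covered pseudocounts of 0.1 and 5, level filters, centring, direct levels, mom1 replicate 2, shared intervals, repeats and, chosen after seeing the data, length and status.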

Additional observations from a re-analysis of the deposited data

How the results depend on the processing

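Of the 154 entries at least 2-fold higher and the 170 lower, a pseudocount of 5 left 78 and 66, and an annotated length of at least 300 bases, chosen after seeing the data, left 87 and 92. An FPKM of at least 5 left 99 lower, and an OK status in both tables, also chosen after seeing the data, 112 lower. Without mom1 replicate 1, so with its replicate 2, 265 entries were higher. The other settings stayed within 1.5 times. The transposon class median of -0.05 was 0 with no filter on FPKM, -0.0710 without mom1 replicate 1 and -0.00499 where repeated loci were left out. The median of other pericentromeric genes, -0.00517, was -0.00595 at a pseudocount of 0.1, 0 with no filter, -0.00608 without mom1 replicate 1 and -0.00414 without repeated loci. The median over genes called up in mom1 replicate 2 ranged from -0.41 at a pseudocount of 0.1 to -0.32 without repeated loci, and was -0.77 with mom1 replicate 2, the library that chose them. limma called 0 genes under each alternative, also with no replicate block (95 higher and 65 lower at an unadjusted p under 0.05). Leaving out either mom1 library from limma leaves no residual degrees of freedom, and this was not run. Of 60 named entries, 53 were at least 2-fold apart; 33 of them stayed so with the same sign without mom1 replicate 1, and 6 changed sign: MIR394b (AT1G76135) at -0.52, AT2G15815.1 at -0.46, AT2G35382 at -0.96, AT2G40802 at -0.23, HSP70 at 0.54 and FLP1 at -0.26. The causes were not tested.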
